A study of Mus musculus with 6 samples.

Results

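The genes described here are the nuclear genes for the protein subunits of the mitochondrial respiratory chain and ATP synthase. They were selected by symbol: Nduf genes of complex I, Sdh genes of complex II, Uqcr genes and Cyc1 of complex III, Cox genes of complex IV and Atp5 genes of complex V, without assembly factors, Ndufa4l2, Cox6a2 and symbols ending in -ps. Of the 26264 gene symbols in the count tables, 103 began with the listed letters, 15 were left out, and 88 remained: 39 in complex I, 4 in complex II, 9 in complex III, 19 in complex IV (Ndufa4, now regarded as a subunit of cytochrome c oxidase, among them) and 17 in complex V. The tables held 0 symbols of the mitochondrial genome, so the subunits encoded there were not analysed here.

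The cells were brown preadipocytes from the stromal vascular fraction of C57BL/6N wild-type mice, immortalized with the SV40 large T antigen delivered by a retrovirus. They received 5.5 nM fibroblast growth factor 8 (FGF8) for 48 h near confluency or were left untreated (vehicle in the methods), and were then harvested at once (day 0) or differentiated into adipocytes without further FGF8. Differentiation began with 2 days in a cocktail of insulin, triiodothyronine, IBMX, dexamethasone, indomethacin and rosiglitazone, followed by insulin, triiodothyronine and rosiglitazone, which both treatments shared. The later harvests are called day 3 and day 9 here, counted from the end of FGF8 treatment, and the last one is day 7 in the labels. The growth text of the labels describes primary white preadipocytes, whereas titles and cell type describe the immortalized brown cells. Each combination of 2 treatments and 3 days was 1 poly(A) RNA library, 6 in all, from 1 immortalized line, so that a difference between 2 libraries has no replicate check. Total counts ran from 16403254 to 38551551, and at day 3 the untreated library held 19468173 and the FGF8 library 38031701.

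The respiratory chain passes electrons from NADH through complex I, or from succinate through complex II, to ubiquinone, and from there through complex III, cytochrome c and complex IV to oxygen. Complexes I, III and IV pump protons across the inner membrane, and ATP synthase (complex V) uses the gradient to make ATP. Brown adipocytes are packed with mitochondria and can dissipate the same gradient as heat through uncoupling protein 1, and the chain is assembled during adipogenesis under regulators such as NRF1, GABP, the estrogen-related receptors (ERR) and their PGC-1 coactivators.

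The proximal promoters of 70 of the 88 genes were at hand as RefSeq windows of 300 bases in GRCm38.p6, from 250 bases before to 50 after the start of transcription. Both strands were searched for the NRF1 motif GCGCATGC and the shorter TGCGCA, which shares the letters GCGCA with it (the 2 overlap in TGCGCATGC). The search also covered the ETS core CCGGAA that GABP reads, the ERR half-site AAGGTCA and the TATA box TATAAA. The windows below belong to genes on which the results turn: first 4 ubiquitous subunits with large increases during differentiation (Atp5l, Uqcrc1, Cox5b, Cox8a), chosen because they hold matches, and then the tissue-restricted Cox8b and Cox7a1 with Cox7a2, the ubiquitous partner of Cox7a1. Capitals mark matches to these motifs on either strand, and each sequence reads in the direction of its gene.
Atp5l, chr9:44920693-44920992, minus strand: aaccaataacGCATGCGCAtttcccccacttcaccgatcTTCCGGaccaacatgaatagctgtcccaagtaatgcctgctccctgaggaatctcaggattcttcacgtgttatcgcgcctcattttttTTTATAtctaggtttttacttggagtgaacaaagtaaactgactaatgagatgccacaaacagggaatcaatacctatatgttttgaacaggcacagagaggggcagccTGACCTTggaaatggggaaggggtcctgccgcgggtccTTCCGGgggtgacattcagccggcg
Uqcrc1, chr9:108936398-108936697, plus strand: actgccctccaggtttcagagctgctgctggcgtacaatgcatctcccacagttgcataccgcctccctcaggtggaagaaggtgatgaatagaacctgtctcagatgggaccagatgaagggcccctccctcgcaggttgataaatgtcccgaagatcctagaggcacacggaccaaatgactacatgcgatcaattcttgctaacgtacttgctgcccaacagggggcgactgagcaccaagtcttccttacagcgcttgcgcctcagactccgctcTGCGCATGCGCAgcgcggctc
Cox5b, chr1:36691237-36691536, plus strand: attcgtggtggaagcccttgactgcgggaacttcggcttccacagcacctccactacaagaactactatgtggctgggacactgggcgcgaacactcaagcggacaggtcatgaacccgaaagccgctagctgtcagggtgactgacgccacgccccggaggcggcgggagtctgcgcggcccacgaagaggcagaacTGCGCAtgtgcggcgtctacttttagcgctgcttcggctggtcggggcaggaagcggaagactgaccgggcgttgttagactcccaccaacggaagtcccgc
Cox8a, chr19:7217567-7217866, minus strand: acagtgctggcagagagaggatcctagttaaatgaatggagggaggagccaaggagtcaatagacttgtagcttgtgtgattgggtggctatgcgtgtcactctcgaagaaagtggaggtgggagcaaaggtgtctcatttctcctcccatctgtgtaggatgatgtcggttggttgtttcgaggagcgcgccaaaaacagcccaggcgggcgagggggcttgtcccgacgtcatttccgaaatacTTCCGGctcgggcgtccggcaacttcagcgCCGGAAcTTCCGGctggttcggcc

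Atp5l, subunit g of ATP synthase, held GCGCATGC starting at -240 from the transcription start, CCGGAA at -211 and 26, and AAGGTCA at -13. Uqcrc1, a core protein of complex III, held GCGCATGC on both strands at 31 and 33, within a single run of capitals. In Cox5b the match was TGCGCA at -52, and Cox8a held CCGGAA at -4, 27 and 34.
Cox8b, chr7:140900397-140900696, minus strand: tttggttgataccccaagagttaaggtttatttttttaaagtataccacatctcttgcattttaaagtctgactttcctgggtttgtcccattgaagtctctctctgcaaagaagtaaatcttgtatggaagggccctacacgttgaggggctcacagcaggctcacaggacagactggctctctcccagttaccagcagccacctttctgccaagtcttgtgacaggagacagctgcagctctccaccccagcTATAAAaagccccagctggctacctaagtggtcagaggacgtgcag
Cox7a2, chr9:79759804-79760103, minus strand: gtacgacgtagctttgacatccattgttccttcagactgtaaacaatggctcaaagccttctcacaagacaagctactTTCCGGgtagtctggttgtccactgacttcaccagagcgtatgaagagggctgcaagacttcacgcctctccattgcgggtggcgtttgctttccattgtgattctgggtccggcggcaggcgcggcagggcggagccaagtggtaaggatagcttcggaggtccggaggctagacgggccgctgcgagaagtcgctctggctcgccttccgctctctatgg
Cox7a1, chr7:30183921-30184220, plus strand: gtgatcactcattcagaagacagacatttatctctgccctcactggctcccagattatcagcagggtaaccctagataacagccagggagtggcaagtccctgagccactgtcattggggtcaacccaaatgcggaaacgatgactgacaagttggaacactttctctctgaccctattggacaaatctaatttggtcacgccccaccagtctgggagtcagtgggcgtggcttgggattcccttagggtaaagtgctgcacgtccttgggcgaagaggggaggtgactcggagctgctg

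The window of Cox8b held TATAAA at 5 and none of the other motifs, that of Cox7a2 held CCGGAA at -172, and that of Cox7a1 held none of the 5. Over all 70 windows, GCGCATGC was found in 10 (14.3%, against 2.80% of 27025 RefSeq promoter windows), TGCGCA in 18 (25.7% against 8.06%) and CCGGAA in 26 (37.1% against 15.2%). At least 1 of GCGCATGC and CCGGAA was found in 31 windows (44.3% against 17.2%). Among the genes with a fitted rise of at least 8-fold to day 9, 12 of 22 windows held 1 of these, and among the others 19 of 47. The windows of Ndufa12, Cox5a, Ndufab1 and Atp5d, which each rose by at least as much as Uqcrc1, held none of the motifs searched. These shares are a description with no test. The YY1 motif AAGATGGCG was found in 6 windows (8.57% against 1.49%), 5 of them of complex I, and AAGGTCA in 8 (11.4% against 4.66%). The shares of TATAAA (11.4% against 14.2%), CCAAT (42.9% against 37.9%) and the SP/KLF motif GGGGCGGGG (15.7% against 11.6%) lay closer to those of all windows. Median GC content was 57.8% in the windows of these genes and 52.7% in all windows, and its part in the shares was not tested. A match describes letters and not a bound site. The genes lay on 19 chromosomes, and 28 of 82 protein-coding ones (34.1%) had the start of an opposite-strand protein-coding gene within 1000 bases, against 2217 of 21770 (10.2%) protein-coding genes.

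The respiratory chain genes took up a growing part of the transcriptome. They held 0.828% of all counts in untreated preadipocytes (95% Wilson interval 0.824 to 0.832) and 0.904% (0.900 to 0.909) in FGF8-treated preadipocytes. At day 3 the share was 1.99% (1.98 to 2.00) in untreated and 3.48% (3.48 to 3.49) in FGF8-pretreated cells, and at day 9 it was 3.54% (3.53 to 3.54) and 4.52% (4.51 to 4.52). The FGF8 library was thus above its untreated counterpart on each day, and the FGF8 library of day 3 lay next to the untreated library of day 9. These intervals cover counting error only and not variation between cultures. In bulk RNA, fewer cells of a type and less RNA per cell cannot be told apart.

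**Figure D1:**
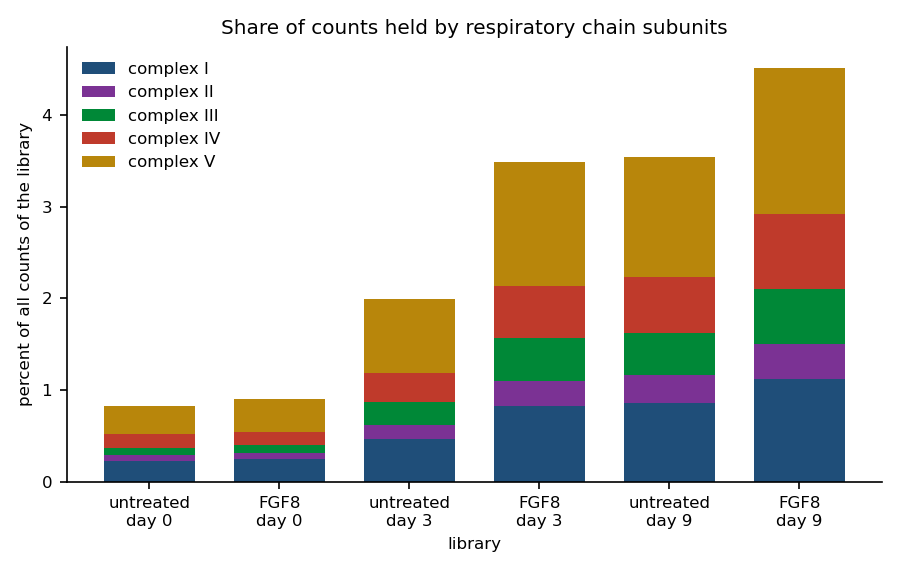
Stacked bars show the percent of all counts in each of the 6 libraries that fell on the 88 respiratory chain genes, split by complex, and the axis starts at 0. The total runs from 0.828% in untreated day 0 to 4.52% in FGF8 day 9, with 3.48% in FGF8 day 3 beside 3.54% in untreated day 9.

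Complex V contributed most of these counts, between 35.3% and 40.5% of the respiratory chain total, followed by complex I with 23.2% to 27.9%. Per transcript length, on a scale normalized for transcript length and depth (TPM), the most abundant of the genes in every library was Atp5b, the catalytic beta subunit of ATP synthase, with 1493 TPM in untreated and 2000 in FGF8 preadipocytes, 5432 and 8265 at day 3, and 8420 and 9319 at day 9. Cox4i1, a subunit of cytochrome c oxidase that is present in all tissues, was second at day 0 (1383 and 1413 TPM), and Cox6a1 was second from day 3 on. These values rest on the length of the canonical transcript. With the union of all annotated exons as length, Atp5b stayed first in every library and Cox6a1 second from day 3 on, but Atp5a1 was second at day 0 and Cox4i1 was at rank 6 in untreated (656.5 TPM) and at rank 5 in FGF8 preadipocytes (686.4 TPM). The median level of the 81 genes with a matched transcript and a mean normalized count of 20 or more lay at 169.9, 395.0 and 680.2 TPM in the untreated libraries of days 0, 3 and 9, and at 196.1, 662.3 and 830.6 TPM in the FGF8 libraries (108.1 TPM in untreated preadipocytes and 472.0 in FGF8 cells of day 9 with the exon union). The genes also came closer together in level, since the SD of log2 TPM across them was 1.97 in untreated preadipocytes and 1.56 in FGF8 day 9 cells.

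Genes without appreciable expression were few. Cox8c and Cox7b2, both known from testis, had 0 counts in all libraries and 1 count in 1 library, respectively, and Ndufa11b, which is annotated as a transcribed processed pseudogene, had at most 1 count. Cox4i2, the hypoxia-linked isoform of subunit 4 known from lung, had 3, 10, 0, 8, 30 and 84 counts in untreated day 0, FGF8 day 0, untreated day 3, FGF8 day 3, untreated day 9 and FGF8 day 9. The same library order holds for every list of 6 values below. The remaining 84 genes averaged 20 normalized counts or more over the 6 libraries, where counts were divided by a size factor per library. Cox7c-ps1 and Ndufb4c are also annotated as transcribed processed pseudogenes, so that their reads could come from Cox7c and Ndufb4. Exons of 53 of the genes overlap a gene on the opposite strand and exons of 9 a gene on the same strand, and how the counting treated such reads is not given in the sources used here.

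**Figure D2:**
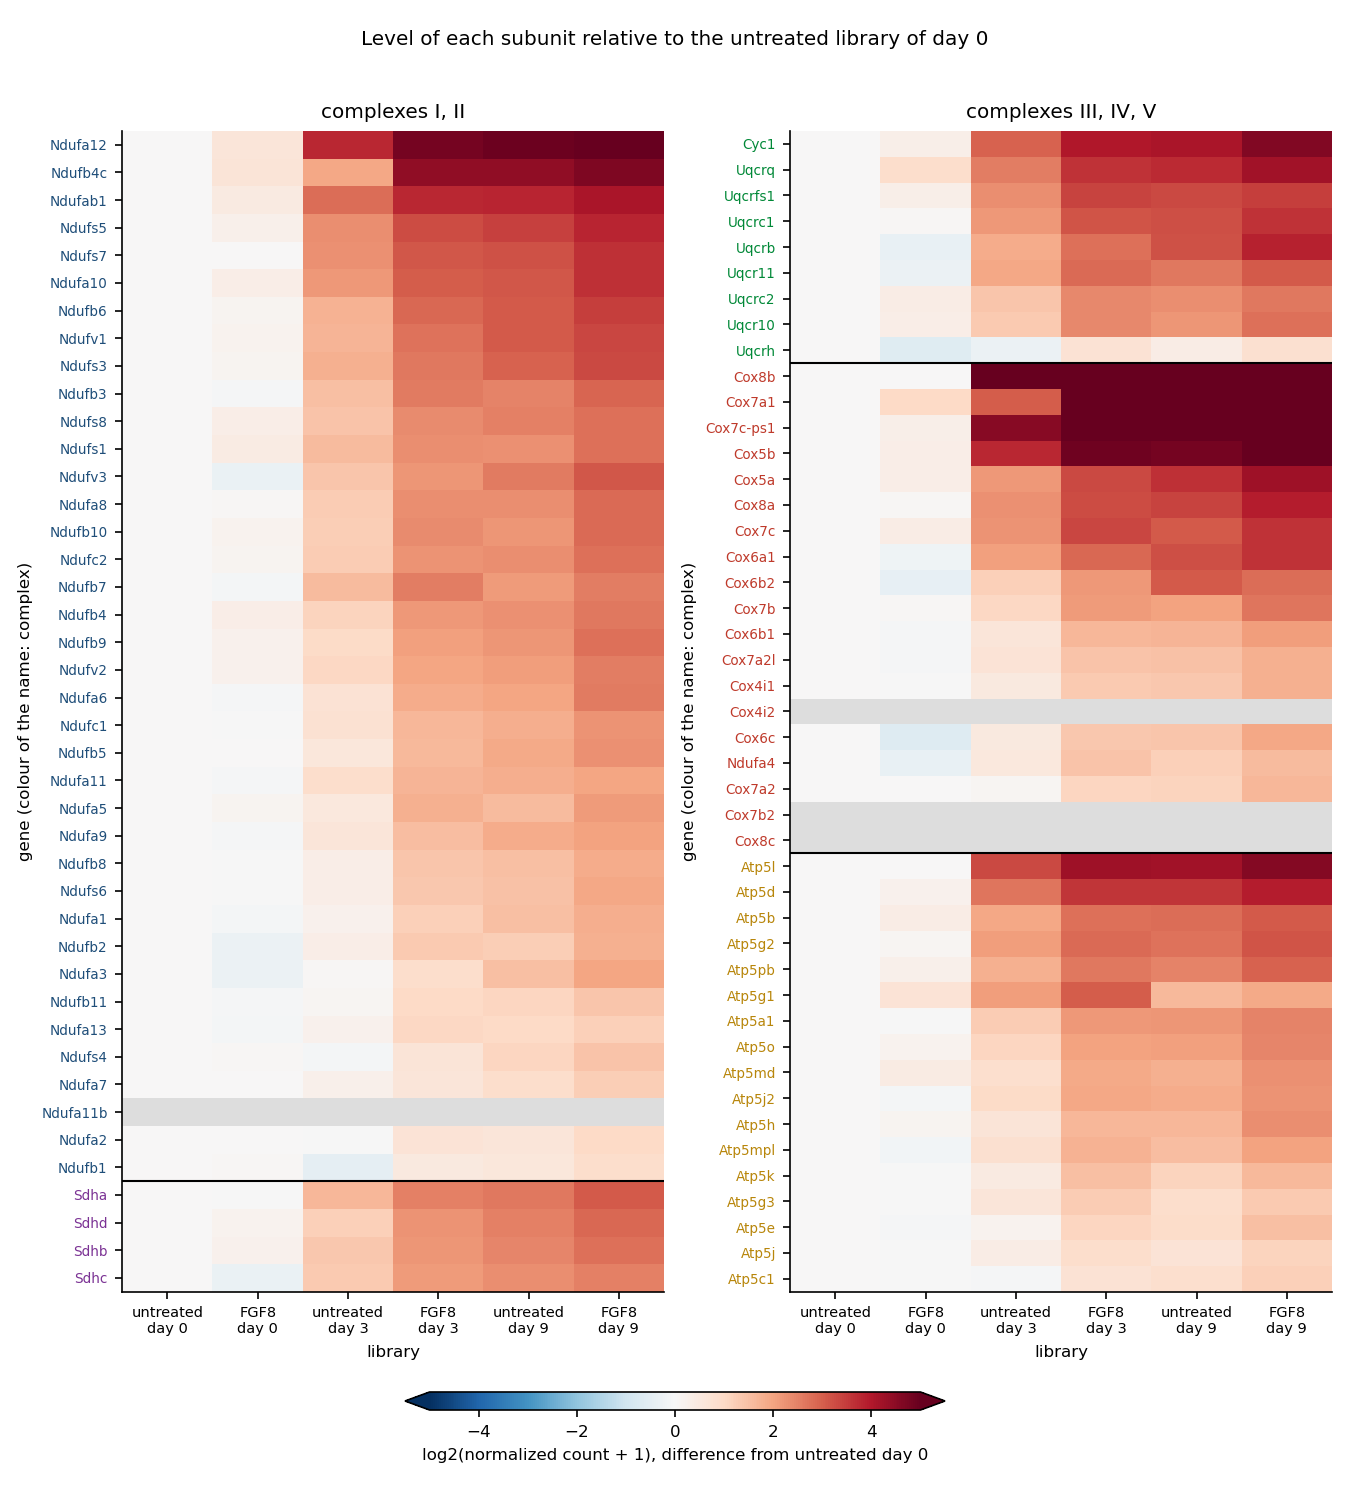
Each row is 1 gene, grouped by complex, and each column 1 library. Colour gives log2(normalized count + 1) minus the value in untreated day 0, colours saturate beyond 5 in either direction, and grey rows had a mean under 20. Rows turn from near 0 at day 0 to red at days 3 and 9, and the FGF8 column of day 3 resembles the untreated column of day 9, where the median difference was -0.06.

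FGF8 alone left the respiratory chain genes of preadipocytes near their untreated level. At day 0, 81 of the 88 genes averaged 20 normalized counts or more over the pair. Of these, 47 were higher (58.0%, beside 54.1% of all genes) and 34 lower with FGF8. The median log2 difference, on the log2(normalized count + 1) scale used for all pairs of libraries, was 0.04, next to 0.05 over all 12657 genes, and 80% of the genes lay between -0.29 and 0.38. None, 0 of 81, was at least 2-fold higher, while 7.27% of all genes were. Over all 88 genes the median was 0.04 as well. The medians of complexes I, II, IV and V lay between 0.01 and 0.08, and that of complex III at 0.29.

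The genes furthest from this median in preadipocytes moved in opposite directions. Cox7a1, the heart and brown fat isoform of subunit 7a, had 17.6 and 35.9 normalized counts (1.98-fold, 95% counting interval 1.00 to 4.39), from 12 and 28 counts. Uqcrq, a small subunit of complex III, had 587.5 and 1096 (1.86-fold, 1.65 to 2.11), and Atp5g1, 1 of 3 genes for the proton-carrying subunit c of ATP synthase, had 433.3 and 688.8 (1.59-fold, 1.38 to 1.84). On the low side, the cytochrome c oxidase subunit gene Cox6c had 3799 and 2453 normalized counts, Uqcrh, the hinge protein gene of complex III, had 6249 and 4057, and Cox6b2, a testis-enriched isoform, had 39.7 and 29.5. Their log2 differences were -0.63, -0.62 and -0.42, and the interval of the Cox6b2 ratio (0.407 to 1.35) contained 1.

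At day 3 of differentiation the genes were higher in FGF8-pretreated cells nearly without exception and by a similar amount. All 84 genes over the minimum were higher, against 55.5% of all genes. Their median log2 difference was 0.95 (1.93-fold), while the median of all 12892 genes was 0.08. The differences were narrow, with 80% of the genes between 0.77 and 1.11. At least 2-fold was reached by 32 of the 84, against 3.8% of all genes. The 2-fold line ran through the middle of the genes, and with scaling by total counts 9 of them passed it. Over all 88 genes, 86 were higher, 1 was lower (Ndufa11b, at 1 count in each library) and 1 equal, with a median of 0.94. The medians of the 5 complexes were 0.96, 0.86, 1.02, 0.97 and 0.91 in the order I to V.

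The catalytic and core subunits shared this difference. At day 3, Atp5b had 88450.5 normalized counts without FGF8 and 156715 with it, Sdha, the flavoprotein of succinate dehydrogenase, 22816 and 41000.2, and Cyc1, cytochrome c1 of complex III, 11624 and 24039.9. Ndufv1, which binds NADH and FMN in complex I, had 6213 and 12464, and Cox5b, a structural subunit of complex IV, 5725 and 12132. Furthest above the median were Ndufb4c (14 and 83.5, 5.64-fold, 95% counting interval 3.22 to 12.3), Cox7a1 (151.5 and 716.0, 4.70-fold, 3.91 to 5.77) and Ndufa5, an accessory subunit of complex I (2075 and 4903, 2.36-fold, 2.24 to 2.50). Lowest were Cox8b, the muscle and brown fat isoform of subunit 8, with 227.8 and 261.1 (1.15-fold, 0.957 to 1.38), Ndufa7 with 1887 and 2421 (1.28-fold) and Atp5j, coupling factor 6 of ATP synthase, with 3662 and 5225 (1.43-fold).

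At day 9 the FGF8 library was still above the untreated one for 83 of 85 genes (97.6%, beside 59.2% of all genes), by a smaller amount. The median log2 difference was 0.42 (1.34-fold), next to 0.08 over all 13070 genes, and 80% of the genes lay between 0.24 and 0.58. Only Cox4i2 was at least 2-fold higher (21.3 and 68.3 normalized counts, 3.11-fold, 95% counting interval 2.09 to 5.04), that is 1 of 85 against 1.12% of all genes. Atp5h, the peripheral stalk subunit d of ATP synthase (8056 and 12839), and Uqcrb of complex III (11963 and 18993) followed, both 1.59-fold higher. The 2 lower genes were both tissue-restricted subunits of complex IV: Cox8b had 3649 and 2562 normalized counts (log2 difference -0.51) and Cox6b2 335.8 and 277.2 (-0.28). Ndufa11 of complex I was next, at 3097 and 3398 (0.13).

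**Figure D3:**
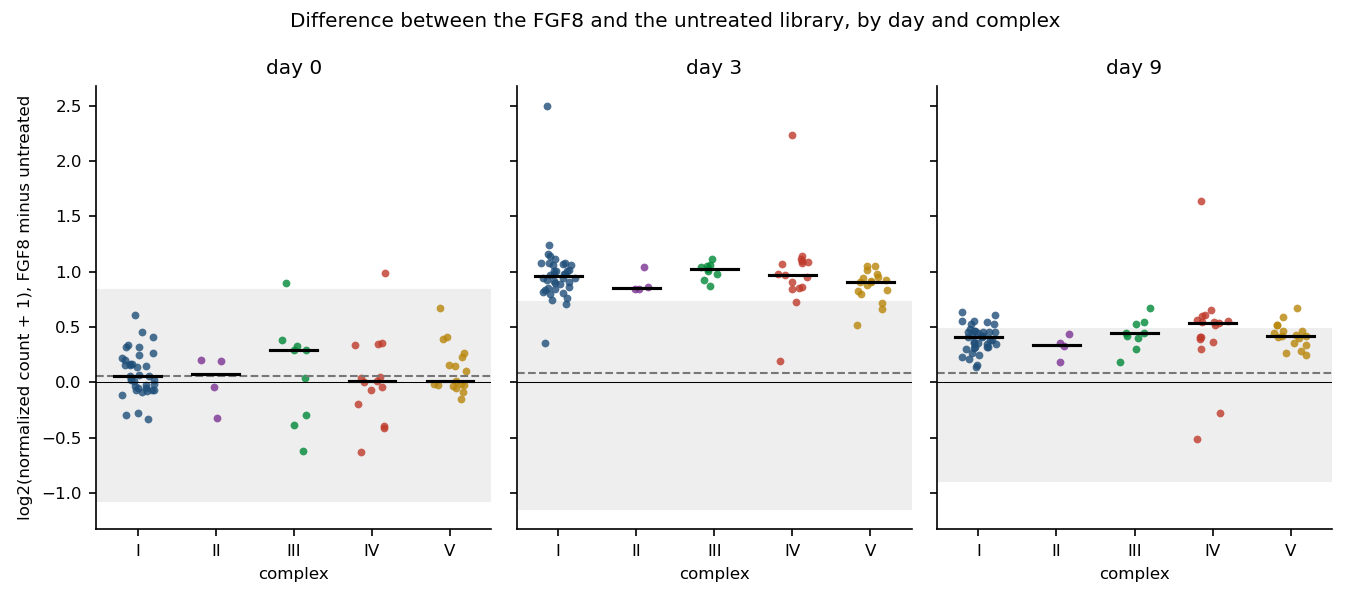
Each point is 1 gene averaging 20 normalized counts or more over the pair, by complex, and the vertical axis is log2(normalized count + 1) in the FGF8 library minus the untreated library of the same day. Bars are medians, the dashed line is the median of all genes and the grey band holds 80% of them. Points scatter around 0 at day 0, centre on 0.95 at day 3 and on 0.42 at day 9.

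The 3 FGF8 comparisons were joined in 1 fit that gave each day its own level and FGF8 an effect shared by the days, which takes the 3 days as stand-ins for replicates and left 2 residual degrees of freedom. The estimate was positive for 84 of 85 genes, with a median of 0.46. By the quasi-likelihood test of edgeR, adjusted after Benjamini-Hochberg, 0 of the 85 passed an adjusted p of 0.05, while 1.27% of 14569 genes did, 3 of them higher and 182 lower with FGF8. At an unadjusted p under 0.05 in edgeR's test there were 26 of the 85, each of them higher. That is 30.6% beside 23.3% of all genes (10.3% of all genes were higher at that threshold). The DESeq2 Wald test called 9 of the genes, and the share of all genes it called is not given here. The lowest adjusted p by edgeR's test was 0.0995 for Uqcrq (log2 difference 0.78 ± 0.16 SE). Cox7a1 (1.30 ± 0.36) had an adjusted p of 0.139 by the same edgeR test, and the estimate below 0 was that of Cox8b (-0.19). Leaving out the day 0 pair gave 37 genes called higher by edgeR's test, against 3.96% of 14367 genes. The fits without day 3 or without day 9 called 0, with 3 and 5 at an unadjusted p under 0.05, and the shares of all genes there are not given. Each fit that left out a day had fewer residual degrees of freedom than the fit over 3 days. Whether the FGF8 effect differed between days could not be tested, since that model leaves 0 residual degrees of freedom.

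Values for the FGF8 library of day 3 and the untreated library of day 9 lay close together gene by gene. The median log2 difference of FGF8 day 3 from untreated day 9 was -0.06, and 79 of 84 genes lay within 0.5 of each other, as did 8064 of 13032 genes in all. The exceptions at the ends were Cox8b, lower in FGF8 day 3 cells by 3.8 on the log2 scale, and Atp5g1, higher there by 1.41.

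Nearly the whole set was higher in the differentiated cells than at day 0. The libraries held no undifferentiated cells of the later days, so differentiation, time in culture and the cocktail cannot be told apart. Taking both treatments as the pair of values per day in the same fit, the edgeR quasi-likelihood test, Benjamini-Hochberg adjusted, called 70 of 85 genes higher at day 3 than at day 0 and 0 lower, against 26.2% of all genes called higher. The median was 1.76 on the log2 scale (3.39-fold), with 34 genes at least 4-fold and 10 at least 8-fold higher. At day 9, 83 of 85 were called higher than at day 0 by the same edgeR test (29.2% of all genes), with a median of 2.39 (5.23-fold), 55 of them at least 4-fold and 27 at least 8-fold higher. The 2 not called were Ndufb1 and Uqcrh. How many of all genes were at least 4-fold or 8-fold higher in this fit was not counted. Between day 3 and day 9, edgeR's test called 0 of the 85 (0.0618% of all genes higher), with 48 at an unadjusted p under 0.05, 47 of them higher. Of all 14569 genes, 3110 (21.3%) were under that unadjusted p, 1609 of them higher. The median over this step was 0.68.

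**Figure D4:**
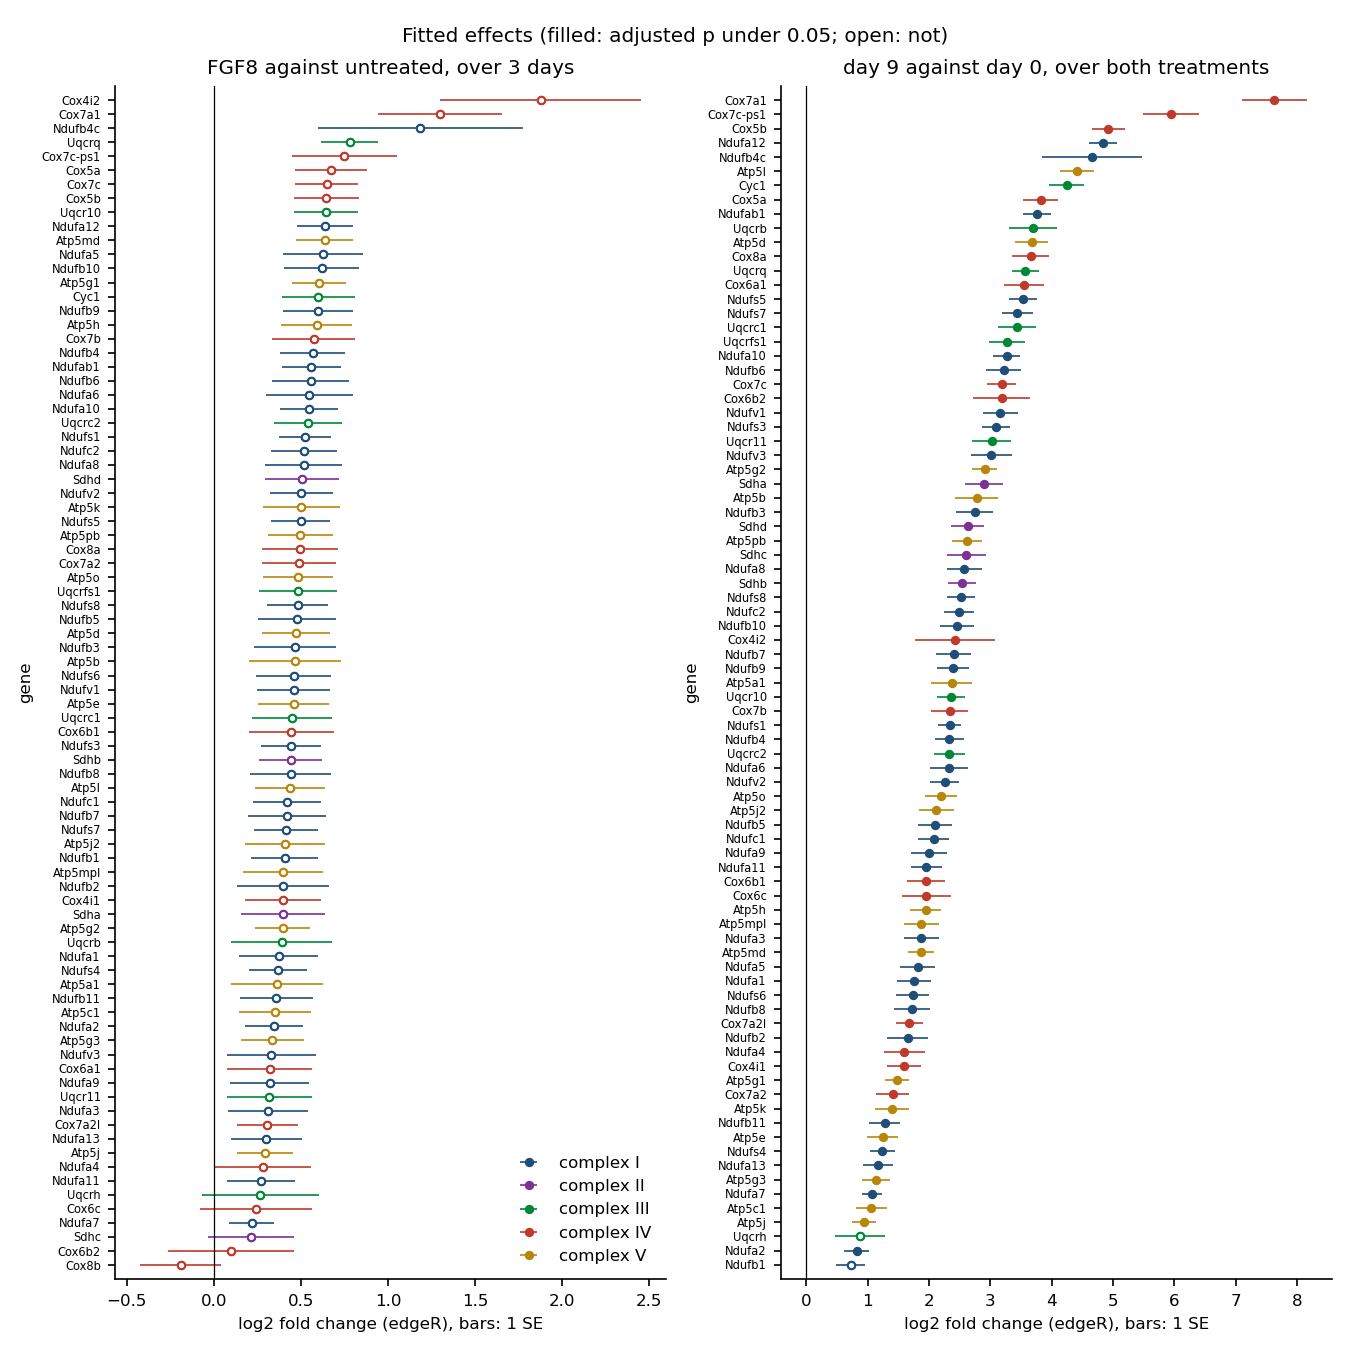
Points are edgeR log2 fold changes for single genes with bars of 1 SE, coloured by complex and sorted by size, for FGF8 against untreated over the 3 days (left) and day 9 against day 0 over both treatments (right, without Cox8b, which had no counts at day 0). Filled points passed an adjusted p of 0.05. Every point on the left is open, and on the right Ndufb1 and Uqcrh are open.

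Seen by treatment, the step to day 3 was larger after FGF8 and the step from day 3 to day 9 larger without it. In untreated cells 78 of 83 genes were higher at day 3 than at day 0 (49.4% of all genes). Of these, 49 were at least 2-fold higher (19.5% of all genes), and the median was 1.26. In FGF8-pretreated cells all 84 over the minimum were higher (48.7% of all genes), 78 of them at least 2-fold (24.1% of all genes), with a median of 2.06. From day 3 to day 9, 83 of 84 were higher in untreated cells (46.7% of all genes) and 42 at least 2-fold (8.77% of all genes). The median was 1.00. The corresponding median in FGF8-pretreated cells was 0.45, with 84 of 85 higher (49.3% of all genes). At least 2-fold higher were 5 of them (8.16% of all genes), and 1 was at least 2-fold lower, which was Atp5g1 (5.40% of all genes). These comparisons share libraries with those of FGF8 at each day and are no separate evidence. Few genes passed the minimum through 1 library of a pair alone: Cox7a1 at day 0 and Ndufb4c at day 3 in the FGF8 comparisons, and at most 3 in any step between days (among Cox8b, Cox7c-ps1, Cox7a1, Ndufb4c and Cox4i2).

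Of the 38 complex I genes tested, edgeR's test called 29 higher at day 3 and 37 at day 9 than at day 0, with medians of 1.51 and 2.33 on the log2 scale. Accessory subunits surround the conserved catalytic core. Of the 31 tested genes outside that core, the annotated pseudogene Ndufb4c among them, 22 and 30 were called, with medians of 1.37 and 2.10. In the core, Ndufv1 had 1901, 2137, 6213, 12464, 16075 and 19313 normalized counts, and was 8.96-fold higher at day 9 (log2 3.16 ± 0.28 SE, adjusted p = 0.00235 by the edgeR quasi-likelihood test, Benjamini-Hochberg adjusted). Ndufs7, which carries the last iron-sulfur cluster before ubiquinone, had an estimate of 3.44 at day 9, and Ndufv2 one of 2.25.

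The extremes of complex I were accessory subunits. Ndufa12 had 166.0, 253.5, 2269, 4588, 5017 and 6391 normalized counts. It was 28.5-fold higher at day 9 than at day 0 (4.83 ± 0.23 SE, adjusted p = 0.00148, edgeR with Benjamini-Hochberg adjustment), with no overlap between days 0 and 3. Ndufab1, the mitochondrial acyl carrier protein, which also serves fatty acid and lipoate synthesis, had 420.1, 577.4, 2889, 5694, 5825 and 7168, a 13.5-fold rise to day 9. At the other end Ndufb1 had 1585, 1644, 1168, 2219, 2349 and 2903 normalized counts. The untreated library of day 3 was its lowest, and its estimate of 0.72 ± 0.24 SE at day 9 had an adjusted p of 0.0513 in edgeR's test. Ndufs4, an accessory subunit whose loss causes complex I deficiency, had 2289, 2388, 2118, 3543, 4766 and 6123. It was not called at day 3 and was called at day 9 by edgeR's test (2.36-fold).

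The 4 subunits of complex II, which is also an enzyme of the citric acid cycle, rose together during differentiation. With FGF8 at day 0, 2 of them were higher and 2 lower. Sdha, the largest, had 7240.0, 7049, 22816, 41000.2, 44878 and 60888 normalized counts and was 7.44-fold higher at day 9 (2.90 ± 0.31 SE, adjusted p = 0.00326, edgeR with Benjamini-Hochberg adjustment). Sdhb, the iron-sulfur subunit, and the membrane anchors Sdhc and Sdhd had estimates of 2.54, 2.61 and 2.63 at day 9 on the same scale. All 4 were called at day 3 and at day 9.

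Complex III had the highest median of the complexes at day 9 (3.28, with 8 of 9 genes called by edgeR's test). Cyc1 led it with 1488, 1817, 11624, 24039.9 and then 25438 and 36605 normalized counts at day 9, a 19.0-fold rise (4.25 ± 0.29 SE, adjusted p = 0.00177 by edgeR's test with Benjamini-Hochberg adjustment). The Rieske iron-sulfur protein Uqcrfs1 (3.28) and the core protein Uqcrc1 (3.43) had similar estimates, and the core protein Uqcrc2 was lower (2.33). Uqcrh did not follow. It had 6249, 4057, 5110, 10371, 8075 and 10999 normalized counts, with the FGF8 library of day 0 lowest, and its estimate at day 9 was 0.88 ± 0.41 SE (adjusted p = 0.126 by edgeR's test).

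Complex IV was the most varied complex. Cox5b had 420.1, 533.9, 5725, 12132, 11576 and 17078 normalized counts and was 30.4-fold higher at day 9 (4.93 ± 0.27 SE, adjusted p = 0.00164 by edgeR's test with Benjamini-Hochberg adjustment). Its partner Cox5a, which sits beside it on the matrix side, rose 14.1-fold and Cox8a 12.6-fold. The abundant subunit gene Cox4i1 was among the small responders, with 8781, 8780, 12265, 22017, 22544 and 29888 normalized counts, a 3.01-fold rise (1.59 ± 0.27 SE, adjusted p = 0.00906 by edgeR's test). Ndufa4 rose 3.03-fold and Cox7a2 2.65-fold. Among the genes of this enzyme the fitted increase at day 9 thus ran from 2.65-fold for Cox7a2 upward.

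The tissue-restricted isoforms of complex IV appeared late. Cox7a1 (chr7:29883569-29885503, GRCm39, plus strand) had 17.6, 35.9, 151.5, 716.0, 3751 and 5731 normalized counts. It was 199-fold higher at day 9 than at day 0 (7.63 ± 0.53 SE, adjusted p = 0.00178 by the edgeR quasi-likelihood test, Benjamini-Hochberg adjusted). The step from day 3 to day 9 was 24.6-fold in untreated cells (95% counting interval 20.7 to 29.9) and 7.99-fold (7.49 to 8.56) after FGF8. Cox7a2, the ubiquitous isoform whose promoter window is shown above, had 3351, 3382, 3570.0, 6986, 7278 and 10627. In TPM, Cox7a1 made 0.740%, 1.49%, 5.10%, 12%, 40.7% and 42.9% of the sum of Cox7a1, Cox7a2 and Cox7a2l, and at day 9 it lay next to Cox7a2 (845.9 and 889.2 TPM in untreated cells, 1208 and 1214 in FGF8 cells). This order depends on the transcript length used: with the exon union, Cox7a1 stood above Cox7a2 at day 9 (1214 and 240.2 TPM in untreated, 1781 and 336.7 in FGF8 cells) and made, in the same order of libraries, 3.96%, 7.72%, 23.2%, 43.2%, 79.3% and 80.6% of the sum.

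Cox8b (chr7:140477069-140480359, GRCm39, minus strand) had 0 counts in both preadipocyte libraries and 227.8, 261.1, 3649 and 2562 normalized counts afterwards. Against a floor of 3 counts per library it was at least 51.7-fold higher at day 3 in untreated cells and at least 68.0-fold higher in FGF8-pretreated cells. From day 3 to day 9 it was 15.9-fold higher in untreated cells and 9.78-fold higher after FGF8. Cox8a kept most of the TPM of the pair, and Cox8b reached 5.03% of it in untreated and 2.48% in FGF8 cells of day 9. For the step from day 3 to day 9 over both treatments Cox8b (3.62 ± 0.25 SE) and Cox7a1 (3.74 ± 0.43 SE) had the lowest adjusted p of the genes, 0.0588 and 0.0615 by edgeR's test with Benjamini-Hochberg adjustment. Cox6b2 rose to day 9 (9.12-fold by edgeR's test) but stayed at 0.944% to 3.09% of the Cox6b TPM, and Cox4i2 at or below 0.235% of the Cox4 TPM (1.71% to 5.49% and at most 0.533% with the exon union).

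**Figure D5:**
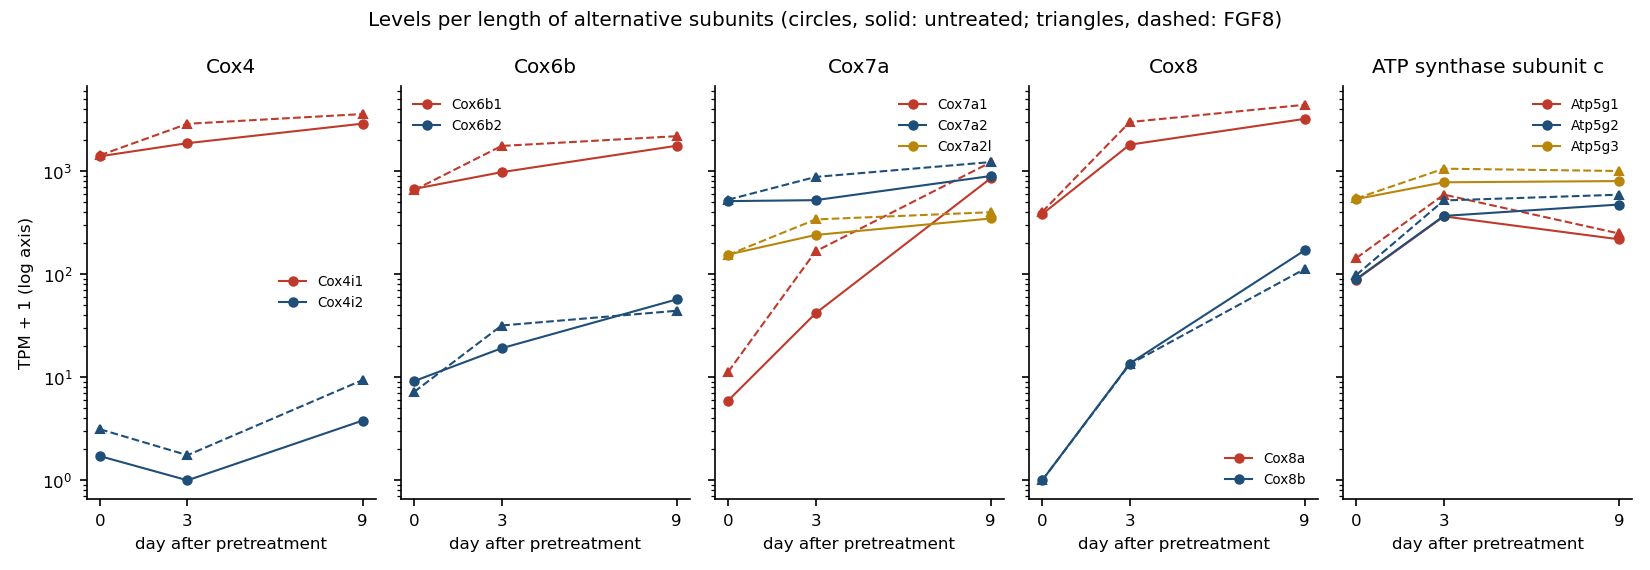
TPM + 1 on a log axis against the day after pretreatment for subunits that exist in alternative forms (circles and solid lines untreated, triangles and dashed lines FGF8, 1 library per point). On the canonical length used here, Cox7a1 climbs from 4.93 and 10.2 TPM at day 0 to the level of Cox7a2 at day 9 (above it with the exon union), Cox8b from 0 to 168.8 and 110.9 TPM, and Atp5g1 peaks at day 3.

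ATP synthase had the lowest median of the complexes at day 9 (1.95), although all 17 of its genes were called by edgeR's test. Its catalytic core rose with Atp5b (23320 and 30560 normalized counts at day 0, 163058 and 193000.2 at day 9), which was 6.85-fold higher at day 9 (2.78 ± 0.34 SE, adjusted p = 0.00428 by edgeR's test with Benjamini-Hochberg adjustment), and Atp5a1, the alpha subunit, at 5.16-fold. Atp5c1, the gamma subunit of the central stalk, rose 2.09-fold. Atp5l exceeded the others, with 330.5, 332.9, 3296, 6183, 6009 and 8063 normalized counts, a 21.4-fold rise (4.42 ± 0.28 SE, adjusted p = 0.00169 by edgeR's test).

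The 3 genes for subunit c, which encode the same mature protein behind different import sequences, took separate courses. Atp5g1 (chr11:95959678-95966757, GRCm39, minus strand) had 433.3, 688.8, 1867, 3539, 1329 and 1619 normalized counts, so that both libraries of day 3 stood above both of day 9. It was 1.41-fold lower at day 9 than at day 3 in untreated cells and 2.19-fold lower in FGF8-pretreated cells. The joint estimate for that step, -0.83 ± 0.19 SE, had an adjusted p of 0.12 in edgeR's test. Atp5g2 had 524.4, 562.0, 2251, 3706, 3456 and 4605 normalized counts, and Atp5g3 4261, 4225, 6458, 10193, 7893 and 10573. In TPM, Atp5g3 made 75.2% of subunit c transcripts in untreated preadipocytes and 53.7% in untreated cells of day 9, while Atp5g2 went from 12.5% to 31.8% and Atp5g1 from 12.3% to 14.6% with 24.1% between them at day 3. With the exon union, Atp5g3 made 91.4% and 80.0%, Atp5g2 4.54% and 14.1%, and Atp5g1 4.07% and 5.90% with 9.99% at day 3, so that the shares depend on the length and their directions did not change.

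Genes that build and serve the chain were higher with FGF8 at day 3 as well, by smaller medians, while 55.5% of all genes were higher. Of the assembly factors, 52 of 53 were higher with a median of 0.70, from Higd1a (1.66) and Ndufaf4 (1.07) to Cox20 (-0.21) and Tmem126b (0.18). Among 20 genes for ubiquinone synthesis and mobile electron carriers, 18 were higher with a median of 0.78. Their ends were Coq8a (1.48) and Gpd2 (1.28), the mitochondrial glycerol phosphate dehydrogenase, against Sqor (-0.44) and Coq8b (-0.03). All 19 genes for replication and transcription of the mitochondrial genome were higher, with a median of 0.68 and Fastkd1 (1.15) on top, and all 24 envelope and matrix genes, with a median of 0.83 and Hspd1 (1.09) on top. At day 9 the medians of these 4 lists were 0.29, 0.35, 0.33 and 0.38. In the fit over the 3 days, edgeR's test called 0 genes of these lists and of the regulators for FGF8, with 21, 9, 12, 18 and 4 at an unadjusted p under 0.05 in the order assembly factors, electron carriers, genome expression, envelope and matrix, regulators. The regulators' share (23.5%) lay near that of all genes (23.3%), and 1 of the 9 carriers and 1 of the 4 regulators were lower.

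Between day 0 and day 9 the same lists differed in how many genes rose. By edgeR's test, which called 29.2% of all genes higher, 38 of 53 assembly factors rose with a median of 1.29 and 18 of 20 electron carrier genes with 2.29. So did 21 of 24 envelope and matrix genes with 1.63, and 9 of 19 genome expression genes with 0.55. Cycs, cytochrome c itself, had 246.8, 457.0, 10103, 23517, 21937 and 31473 normalized counts. Tfam, which packages and transcribes mitochondrial DNA, had 1697, 2644, 2477, 4385, 3354 and 4396, so that the FGF8 preadipocytes already lay above the untreated cells of day 3.

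Among 17 regulators over the minimum, edgeR's test called 10 higher and 4 lower at day 9 than at day 0, while 29.2% of all genes were called higher. At an unadjusted p under 0.05 in that test there were 14 regulators (82.4%), beside 61.0% of all genes. The coactivator gene Ppargc1a had 48.5, 15.4, 950.7, 2129.7, 2785 and 3755 normalized counts and Ppargc1b 38.2, 41.0, 3643, 7726, 5703 and 8948. Esrra, which encodes ERR alpha, had 213.0, 174.1, 2647, 4919, 3849 and 5397, and Esrrg 7.34, 6.40, 96.7, 334.1, 310.2 and 411.4. For these 4 genes, chosen after their values were seen, both libraries of day 0 lay below all later ones. The share of all genes with that order was not counted. The FGF8 library was the higher one at days 3 and 9, and at day 0 it was the higher one for Ppargc1b alone. Gabpa had 3306, 4071, 4418, 7081, 5333 and 6405 and Nrf1 953.3, 1579.8, 948.2, 1039.6, 818.4 and 969.8, so that Nrf1 had its highest value in FGF8 preadipocytes. At day 3 the ends of the list were Esrrg (1.78) and Ppara (1.56) against Nrip1 (-0.31), a corepressor, and Hif1a (-0.28).

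Markers of cell state also differed between days and treatments, not always in the direction of the respiratory chain genes. The summed normalized counts of 10 adipocyte markers were 9376 and 2895 at day 0, then 444732 and 766453 at day 3, then 609322 and 703986 at day 9. All 10 genes were higher with FGF8 at day 3 (median 0.73) and at day 9 (0.24), beside 55.5% and 59.2% of all genes. The sums of 9 brown adipocyte markers were 1899 and 1909, 10634 and 27482, and 158300.2 and 189215. The near-equal sums of day 0 held opposite differences, since Pdk4 (1481 and 257.3) and Dio2 (304.1 and 60.2) were lower with FGF8 and Ucp1 (0 and 1328) was higher. At day 9 Ucp1 gave most of each sum (91306 and 99587), while Dio2 (-0.47) and Elovl3 (-0.39) were lower with FGF8. The sums of 10 preadipocyte markers were 324267 and 116644, 517600.2 and 163391, and 532861 and 143371, with the FGF8 sum lower on every day. By gene, 8 of 10 were lower with FGF8 at day 0 and 2 higher (Pi16 by 2.95), and all 8 over the minimum were lower at days 3 and 9. In untreated cells the sum rose to day 3, while 8 of 10 genes fell, with a median of -1.64 on the log2 scale. The sums of 7 proliferation markers were 56628 and 68392, 36486 and 46933, and 25624 and 32291. The part of differences in differentiation, proliferation or library depth in the respiratory chain differences was not tested.

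Since several subunits are shared with muscle, 14 skeletal and cardiac muscle markers were examined. Of these, 6 were at 0 in all libraries, Myod1 and Ckm among them, and 3 averaged 20 normalized counts or more over the 6 libraries. Their sums were 48.5, 26.9, 48.4, 138.3, 1635 and 4179, of which Mb, the myoglobin gene, gave 1557 and 4084 at day 9. The sums of 8 macrophage markers were at most 312.9 and those of 6 endothelial markers 1630 in untreated preadipocytes and at most 212.5 elsewhere.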

How the data were processed

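The authors trimmed the reads with Trim Galore, aligned them with HISAT2 to GRCm39 (mm39), summed them over genes with featureCounts, and deposited raw counts by gene symbol, 1 file for each of the 6 libraries. Versions, annotation, strand setting and the treatment of multiply mapped reads are not given in the sources used here. Blank or total rows numbered 0 and no libraries were identical.

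Pairs of libraries were compared as log2(normalized count + 1), with size factors by median of ratios over the 6 libraries and a minimum mean of 20 in the pair. Ratios carry exact 95% binomial (Clopper-Pearson) intervals. Tests across days used edgeR 4.0.16 (quasi-likelihood, TMM, terms for treatment and day, Benjamini-Hochberg over 14569 genes) in R 4.3.3, checked on simulated data. A p then weighs the treatment or day effect against departure from additivity over single libraries, which need not be separate cultures. Alternatives were DESeq2 1.42.0, other scalings, filters, pseudocounts and folds, and each day left out. TPM used the Ensembl canonical transcript length of GENCODE M39, chosen after the exon union proved to hold long retained introns. Of the 88 genes, 85 matched that annotation, 13 through RefSeq synonyms. Atp5mpl, Atp5o and Atp5md did not match. 1 gene is not reported singly here, in text or plots, and stays in the counts and medians. Named genes were core subunits, the isoform sets, genes under 20 normalized counts and the 3 most extreme genes in each direction of each comparison. Others, among them Ndufa12, Atp5l and Cox6c in the fits, the genes of the promoter windows and single genes of the pathway lists, were chosen after their values were seen. The genes and the pathway and marker lists were chosen with earlier results of these data known.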

Additional observations from a re-analysis of the deposited data

Results flagged for a closer look

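For 6 genes the FGF8 library was at least 1.25-fold below the untreated library at day 0 and at least 1.25-fold above it at another day, with 95% counting intervals that left out equality. Each was picked out for this change of direction between days. How many of all genes meet the same rule was not counted, so that the 6 are a description only. The difference between days was not tested, since each value compares 1 library with 1. On the log2(normalized count + 1) scale, at days 0, 3 and 9, the difference of FGF8 from untreated cells was -0.631, 0.864 and 0.536 for Cox6c, and -0.391, 0.908 and 0.390 for Ndufa4, both of complex IV. For complex III it was -0.623, 1.021 and 0.446 for Uqcrh and -0.386, 0.923 and 0.667 for Uqcrb. In Ndufv3 of complex I the values were -0.332, 0.842 and 0.524. The membrane anchor of complex II, Sdhc, had -0.325, 0.842 and 0.180.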

How the results depend on the processing

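Of 107 recomputed values of whole comparisons, 82 stayed near the value given, 21 moved and 4 passed a threshold that the value given did not. A change of direction was not looked for in counts or in the smaller medians. Genes called for FGF8 over the 3 days numbered 0, but 9 with the DESeq2 Wald test and 37 without the day 0 pair (0 without day 3 or day 9). For day 9 against day 3 the count of 0 became 2 with no filter on low counts and 24 with the DESeq2 Wald test. The counts for day 3 against day 0 (59 to 73) and day 9 against day 0 (81 to 84) stayed within 1.5 times. Apart from the fit without day 0, the shares of all genes called under these alternatives are not given here. Scaling by total counts gave a median FGF8 difference of 0.839 at day 3 in place of 0.946, and medians of 0.857 in place of 1.0 for untreated cells from day 3 to day 9, 1.855 in place of 2.061 for FGF8 cells from day 0 to day 3, and 0.383 in place of 0.454 for FGF8 cells from day 3 to day 9. Size factors within the pair gave 0.351 in place of 0.417 for FGF8 at day 9. Scaling by total counts moved the median of all genes to 0.112 for FGF8 at day 0, to -0.185 for untreated cells from day 3 to day 9 and to -0.251 for FGF8 cells from day 0 to day 3, and TMM moved it to 0.116 for FGF8 at day 9.

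Counts past a fold followed the fold chosen. For FGF8 at day 0 the count of 0 at 2-fold became 6 at 1.5-fold, 1 with total counts and 1 with no filter. At day 3 the 32 became 81 at 1.5-fold, 2 at 4-fold and 9 with total counts. At day 9 the 1 became 9 at 1.5-fold, 0 at 4-fold and 0 with a minimum mean of 100. For untreated cells the 49 from day 0 to day 3 became 21 at 4-fold, and the 42 from day 3 to day 9 became 80 at 1.5-fold, 3 at 4-fold and 23 with total counts. For FGF8 cells the 78 became 47 at 4-fold, and the 6 past 2-fold in either direction from day 3 to day 9 became 29 at 1.5-fold and 3 at 4-fold. The shares of all genes at these alternative folds, scalings and minima were not counted. Of 525 values of single genes, 392 stayed near the value given and 7 changed sign, the largest of these at 0.041. The cause of these moves was not tested. Levels compared between genes depend on the transcript length, and the exon-union values stand beside them. The joint fit compared the treatments within each day. With 1 library per condition the spread between cultures is unknown at any depth, and counting error limits the genes under 20 normalized counts.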

Other observations

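In preadipocytes, where the respiratory chain genes lay near their untreated level with FGF8 (median 0.04), genes of the mitochondrial envelope and matrix stood higher. Of 24 such genes, 22 were higher with FGF8 at day 0 (91.7%, beside 54.1% of all genes), with a median log2 difference of 0.56. The genes lower were Mfn2 (-0.13) and Slc25a4 (-0.22). Hspa9, the matrix chaperone that pulls proteins through the import channel, had 9458 normalized counts without FGF8 and 37952 with it (2.00 on the log2 scale), a value that untreated cells reached at day 3 (37771). The matrix protease gene Lonp1 had 2741 and 7978 (1.54), and the chaperonin gene Hspd1 4484 and 9926 (1.15). Among genes for mitochondrial genome expression 17 of 19 were higher at day 0, with a median of 0.46. These are single libraries, and the difference from the respiratory chain genes was not tested.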
